A study of Homo sapiens with 9 samples.

Results

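The regions described here are the EGR1 sites listed in 5 hg19 windows around genes for regulators of the mesenchymal state: SNAI1 (chr20:48570000-48630000), SNAI2 (chr8:49810000-49860000), TWIST1 (chr7:19130000-19180000), ZEB1 (chr10:31580000-31840000) and ZEB2 (chr2:145110000-145300000). A listed peak belonged to a window when its summit lay inside it. By that rule, 5 of 12340 peaks of the clobetasol list and 10 of 16285 peaks of the induced list were members, in 4 of the 5 windows, and the SNAI2 window held 0 in both lists. The members were chosen by listed peaks of these same lists, with results of these data known, among them that a strong SNAI1 site had no clobetasol peak, so the peaks, folds, overlaps and pileups below are a description and carry no test.

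EGR1 binding was measured by chromatin immunoprecipitation with sequencing, with the antibody sc-189X, in BJ-hTert-B-RAF-V600E cells. These are human fibroblasts immortalised with telomerase that carry a B-RAF V600E oncoprotein under the control of doxycycline, and all groups are this 1 line. Per the labels there were 3 libraries in each of 3 groups: cells given doxycycline at 1000 ng/mL and clobetasol at 2 nM, cells given doxycycline at 1000 ng/mL and DMSO, and proliferating cells given ethanol and DMSO, each for 24 h. Titles name DMSO for the clobetasol group too, while its treatment label names clobetasol alone. The authors compared each pool of 3 treated libraries with the pool of 3 proliferating libraries, so each group gives 1 value per site, with no spread between replicates, and no test between conditions was possible. All 3 groups were immunoprecipitated with the EGR1 antibody, and no input library stands beside them.

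EGR1 is a zinc finger transcription factor whose gene is switched on within minutes by ERK signalling, and it binds GC-rich DNA. SNAI1, SNAI2, TWIST1, ZEB1 and ZEB2 encode transcription factors that repress epithelial genes such as the cadherin gene CDH1 and keep or bring about the mesenchymal state; fibroblasts are mesenchymal cells to begin with. SNAI1 and SNAI2 are zinc finger repressors of the Snail family, TWIST1 is a basic helix-loop-helix factor, and ZEB1 and ZEB2 combine zinc fingers with a homeodomain. Clobetasol is a synthetic glucocorticoid that activates the glucocorticoid receptor. Expression of these genes was not measured in these libraries, so a site in a window says nothing on the level of its gene.

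Promoter sequence from RefSeq (GRCh38.p14) was matched by symbol for 2 of the 5 genes, ZEB1 and ZEB2. It is shown to let the letters be set beside the EGR1 motif. The peaks are in hg19 and were not placed on these sequences, and the bases under the peaks themselves are not printed. Each line gives the 250 bases before an annotated start, 5′ to 3′ on the gene's strand, and capitals mark GNGGGCG.

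ZEB1, start with a match at -121 (GRCh38, chr10:31318568-31318817, + strand): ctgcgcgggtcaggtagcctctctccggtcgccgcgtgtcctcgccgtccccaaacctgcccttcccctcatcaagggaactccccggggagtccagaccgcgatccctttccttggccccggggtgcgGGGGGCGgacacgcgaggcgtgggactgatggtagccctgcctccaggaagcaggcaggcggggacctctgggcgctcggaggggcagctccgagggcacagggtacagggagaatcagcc

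ZEB1, start with a match at -59 (GRCh38, chr10:31320304-31320553, + strand): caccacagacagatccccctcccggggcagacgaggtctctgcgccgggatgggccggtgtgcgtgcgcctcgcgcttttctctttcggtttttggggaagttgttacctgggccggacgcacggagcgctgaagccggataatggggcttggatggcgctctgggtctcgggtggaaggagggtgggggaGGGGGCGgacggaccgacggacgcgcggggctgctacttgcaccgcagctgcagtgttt

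ZEB2 (GRCh38, chr2:144520120-144520369, - strand): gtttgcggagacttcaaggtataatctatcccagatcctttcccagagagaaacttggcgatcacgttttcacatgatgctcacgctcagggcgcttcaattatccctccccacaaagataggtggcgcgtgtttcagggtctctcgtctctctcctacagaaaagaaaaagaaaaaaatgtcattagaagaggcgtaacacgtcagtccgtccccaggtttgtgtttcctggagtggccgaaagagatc

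The EGR1 motifs of 9 letters, GCGTGGGCG and GCGGGGGCG, were searched on both strands. They were found in 0.720% and 4.72% of 35116 RefSeq promoter entries, in 0 of the 7 entries of ZEB1 and in 0 of the 1 entry of ZEB2. The shorter GNGGGCG, which forms the last 7 letters of both and so overlaps every match of either, was added after that result. It was found in 4 of the 7 ZEB1 entries, in 0 of the 1 ZEB2 entry and in 37.4% of all entries. A match is a string of letters and not a bound site.

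All 10 members were sites where the induced pool exceeded the proliferating pool, and all 5 clobetasol members overlapped one of them, so the windows held 10 distinct sites. They are numbered from left to right within a window. The fold is the authors' value for the treated pileup at the summit over the proliferating level around it, and the −log10 q is theirs too. From the fold and the −log10 p, the number of fragments over each summit was recovered as a whole number in the treated pool and as a level in the proliferating pool. The scaling of the proliferating pool to each treated pool put the clobetasol pool at 1.22 times the depth of the induced pool, and clobetasol fragments were divided by that ratio before pools were compared. Intervals of fragments are exact 95% Poisson intervals and those of ratios are exact 95% binomial intervals; both cover counting error only.

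**Figure D1:**
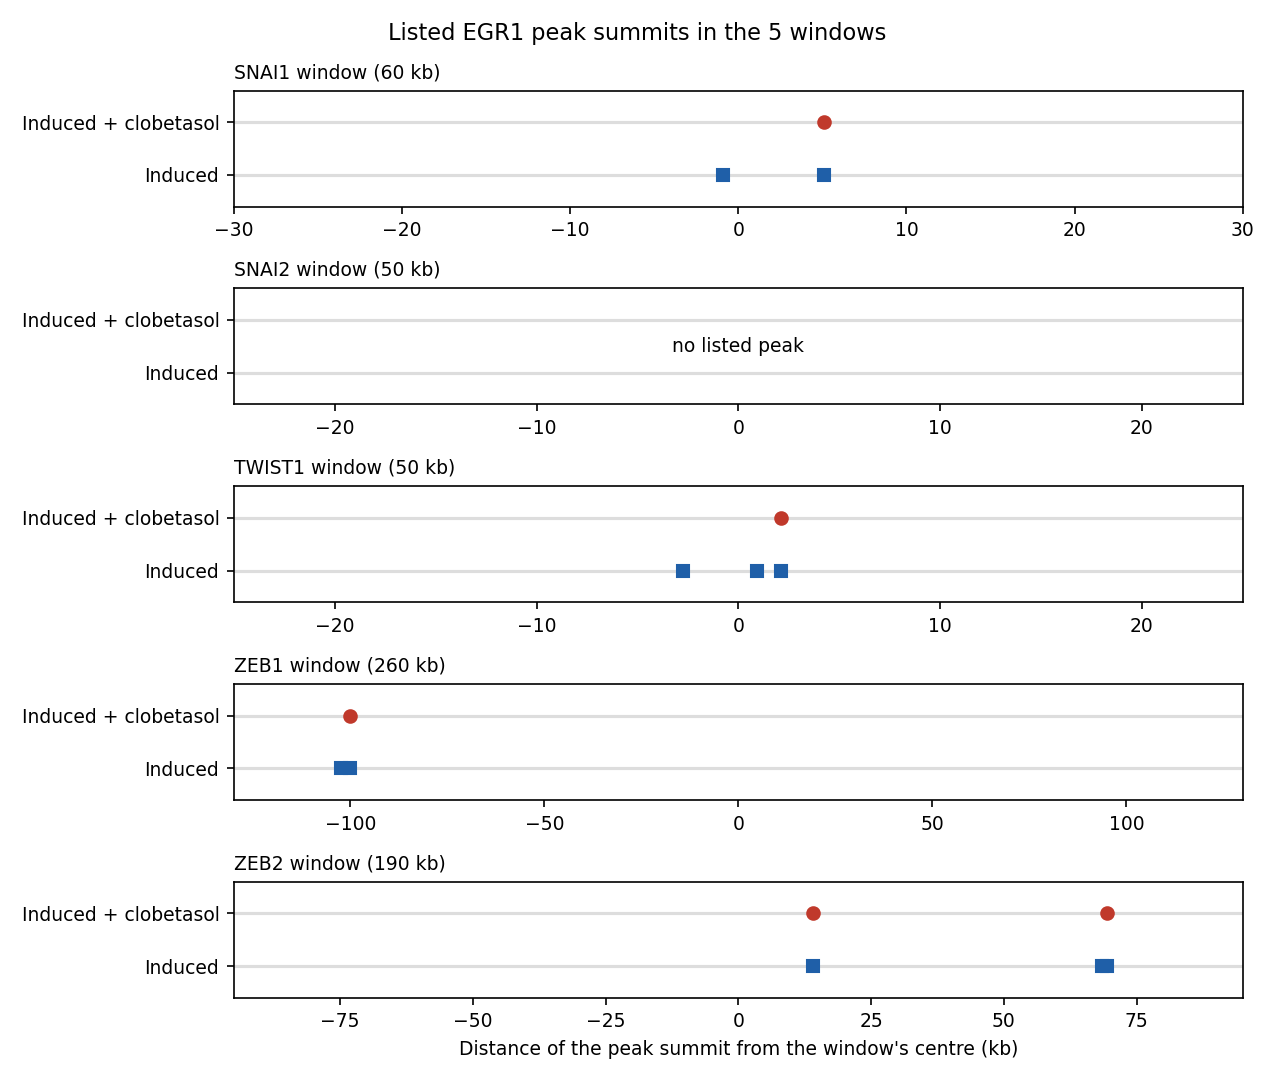
Summits of listed EGR1 peaks (x axis, distance from the centre of each window in kb) in induced cells with clobetasol (circles, upper row of each panel) and induced cells (squares, lower row). The induced list has 10 summits and the clobetasol list 5; the SNAI2 window has none in either list.

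The 2 SNAI1 sites were the strongest of the 10 by fold, q and fragments, and they lay 5975 bp apart. SNAI1 encodes the Snail repressor, a zinc finger protein that acts on E-box sequences of CDH1. SNAI1 site 1 (chr20:48598945-48599855) held 130 fragments in the induced pool (109 to 154) over 44 fragments in the proliferating pool, which came to a level of 24.3 at the depth of the induced pool. Its listed fold was 5.18, higher than that of 89.3% of induced peaks, and its −log10 q of 46.7 ranked 1751 of 16285. SNAI1 site 2 (chr20:48604856-48605290) held 148 induced fragments (125 to 174) over 47 proliferating fragments, with a listed fold of 5.53 and a −log10 q of 56.7. At both sites the induced interval lay far above the scaled proliferating level. The 2 sites differed in shape: site 1 was 911 bp wide, wider than 88.6% of induced peaks, with its summit 148 bp from the left edge and 762 bp from the right. Site 2 was 435 bp wide with its summit near the middle.

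With clobetasol the 2 SNAI1 sites parted in whether they were listed. Site 2 stayed in the list and kept its summit to the base, at position 48605068. It held 103 fragments in the clobetasol pool, or 84.8 after depth scaling (69.2 to 103), against 148 in the induced pool. The 2 intervals did not overlap, and the ratio was 0.573 (0.441 to 0.742). The proliferating count recovered from the clobetasol list was again 47, as it must be for the same pool read at the same base. Of the excess over the proliferating level, 0.482 was left. At 3.72% of shared sites of the whole series the ratio was lower than at SNAI1 site 2.

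SNAI1 site 1 had no clobetasol peak. The nearest listed clobetasol peaks were 45.9 kb to its left and, at site 2, 5.01 kb to its right. No pileup is therefore known for the clobetasol pool at site 1, and a level was computed instead: the fewest fragments that would have reached the lowest −log10 p of the clobetasol list, 8.12, over the same proliferating level. At site 1 that was 65 fragments, where a site with the same depth-scaled pileup in both pools, called unchanged here, would have held 158. If listing followed the p and q values alone, the depth-scaled pileup at that summit was below 0.412 of the induced one. This bound carries no interval, and a difference in ratio between the 2 SNAI1 sites was not tested. Peak numbers are in order along each chromosome, and those of the clobetasol list skip 1 number between the peaks on either side of site 1, a stretch of 51.8 kb. If the numbers count calls, 1 call there went unlisted, and whether it lay at site 1 was not recorded.

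A missing clobetasol peak was rare among sites as strong as SNAI1 site 1. Of the 1751 induced peaks with at least its −log10 q, 15 had no overlapping clobetasol peak (0.857%). Of the 1751, 618 had a proliferating level of at most 5 times the lowest of the list, and what a higher level stands for was not tested. Among the 618, 2 had no overlapping clobetasol peak, SNAI1 site 1 included (0.324%). The bound was meant to set aside repeat-like sites, and no other bound was tried. It left out most of the 15 peaks, so the lower share rests on it. A missing peak at a site this strong is what brought the locus into view, so both shares are a description and not a probability. Of the 4 induced peaks within 100 kb outside the SNAI1 window, 3 had a clobetasol peak. The one without, at chr20:48503983-48504449, was weaker than site 1, with 93 induced fragments and a −log10 q of 18.4. The nearest induced peaks outside it, 17.1 kb to the left and 16.6 kb to the right, held 118 and 107 fragments in the clobetasol pool, against 143 and 134 in the induced pool. Their ratios were 0.679 (0.528 to 0.873) and 0.657 (0.505 to 0.854), so both were listed with fewer fragments. Both ratios lay above the 0.573 of site 2 but inside its interval (0.441 to 0.742). They were close to 0.668, the lower quartile of shared sites with an induced −log10 q of at least 20.

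The SNAI2 window had no listed peak in either list. SNAI2 encodes Slug, the sister of Snail. The nearest clobetasol summits outside it were 144 kb to the left and 558 kb to the right, and the nearest induced summits were 79.0 kb to the left and 558 kb to the right. The induced peak on the left had a fold of 3.26 with 49 fragments and no clobetasol peak. Around the window, 4 numbers were skipped in the clobetasol list over 751 kb between listed peaks and 3 in the induced list over 687 kb, so a few unlisted calls may lie in that stretch. An EGR1 site that is as strong in proliferating as in induced cells would also be missing from both lists.

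The TWIST1 window held 3 induced sites within 5 kb of each other, and the strongest was the one that kept a clobetasol peak. TWIST1 encodes a basic helix-loop-helix factor that binds E-boxes with E proteins. RefSeq has LOC124901597 overlapping the TWIST1 gene, so a site in this window cannot be assigned to 1 of the 2. TWIST1 site 3 (chr7:19156706-19157279) held 76 fragments in the clobetasol pool, or 62.5 after depth scaling (49.3 to 78.3), against 81 in the induced pool (64.3 to 101). The intervals overlapped. The ratio was 0.772, and its interval (0.557 to 1.07), which covers counting error but no spread between replicates, spanned 1. The induced count stood over 32 proliferating fragments, with a listed fold of 4.40. TWIST1 sites 1 and 2 (chr7:19151956-19152356 and chr7:19155799-19156447) were weaker. They held 51 and 60 induced fragments over 34 and 36 proliferating fragments, with folds of 2.63 and 2.92, and 16.6% of induced peaks had a fold as low as that of site 2. Neither had a clobetasol peak.

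At those 2 weak TWIST1 sites a missing peak says little about the size of any difference. Listing would have needed 55 clobetasol fragments at site 1, where an unchanged site would have held 62.0, and 57 at site 2, where it would have held 72.9. A ratio of 0.888 at site 1 or 0.782 at site 2 was thus close to the lower end of the list. The clobetasol list skips 1 number between the peaks on either side of both sites, so, if the numbers count calls, at most 1 of the 2 had a call of its own that went unlisted. The gap between sites 2 and 3 was 258 bp in the induced list.

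**Figure D2:**
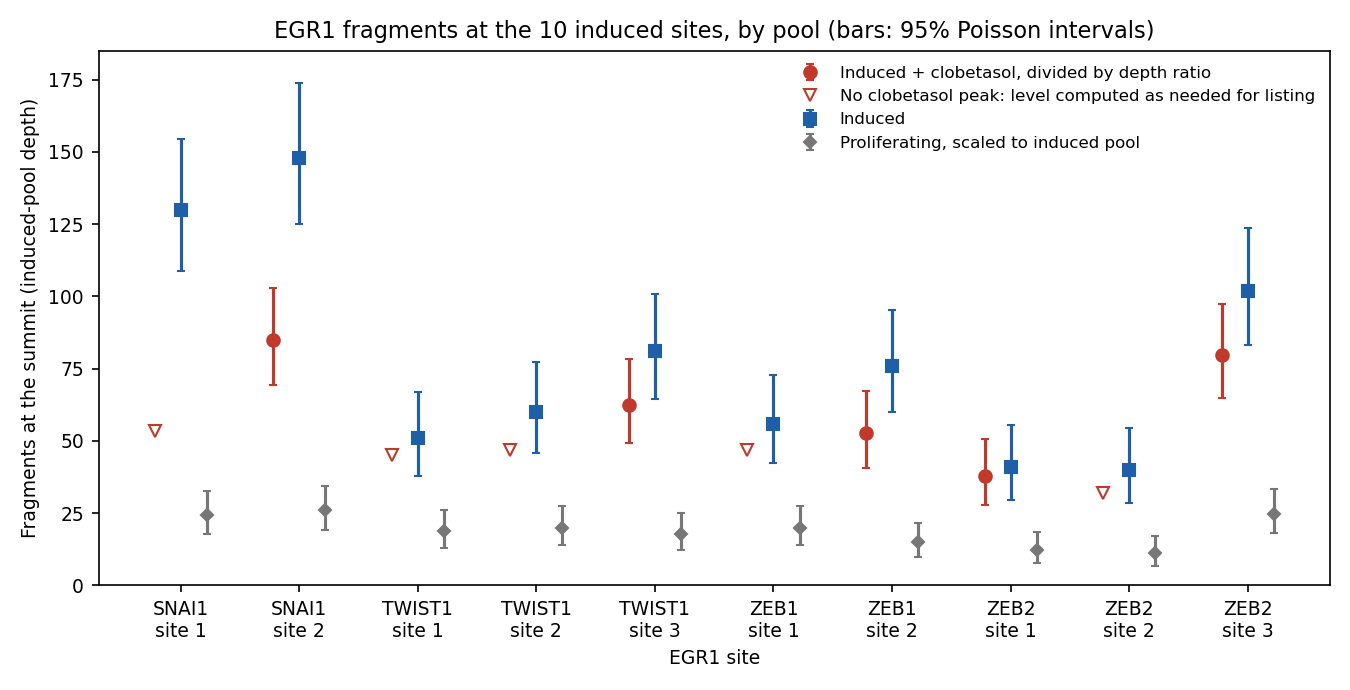
Fragments over the summit of each of the 10 sites (y axis, at the depth of the induced pool) in induced cells with clobetasol (circles), induced cells (squares) and proliferating cells (diamonds), with 95% Poisson intervals; open triangles give the computed level for listing where there is no clobetasol peak. SNAI1 site 1 has 130 induced fragments and a listing level far below them, while at TWIST1 sites 1 and 2, ZEB1 site 1 and ZEB2 site 2 the listing level falls inside the induced interval.

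The ZEB1 window showed the same pairing of a stronger site with a clobetasol peak and a weaker one without. ZEB1 encodes a zinc finger homeodomain repressor that is held in check by microRNAs of the miR-200 family. ZEB1 site 2 (chr10:31609632-31610106) held 64 fragments in the clobetasol pool, or 52.7 after depth scaling (40.6 to 67.3), against 76 in the induced pool (59.9 to 95.1). The separate intervals overlapped, while the interval of the ratio, 0.693 (0.489 to 0.979), lay below 1. The listed folds were 3.08 in the clobetasol list and 4.85 in the induced list, each over its own scaled control. ZEB1 site 1 (chr10:31607556-31607978), 2165 bp to the left by summit, held 56 induced fragments over 36 proliferating fragments, with a fold of 2.73, and had no clobetasol peak. Listing would have needed 57 clobetasol fragments there, where an unchanged site would have held 68.0, a ratio of 0.838. No other peak was listed in the 260 kb of this window. RefSeq has the antisense gene ZEB1-AS1, SPTLC1P1 and LOC100505502 overlapping the ZEB1 gene, so a site in this window cannot be assigned to 1 of them.

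At ZEB2 both a distant weak site and the strongest site kept a clobetasol peak. ZEB2 encodes the SMAD-interacting relative of ZEB1 and has an antisense partner as well, ZEB2-AS1. ZEB2 site 3 (chr2:145274186-145274706) held 97 fragments in the clobetasol pool, or 79.8 after depth scaling (64.7 to 97.4), against 102 in the induced pool (83.2 to 124). The ratio was 0.783, and its interval (0.587 to 1.04), which covers counting error only, spanned 1. ZEB2 site 1 (chr2:145218965-145219340), 54378 bp to the left of site 2, held 46 fragments in the clobetasol pool, or 37.9 after depth scaling (27.7 to 50.5), against 41 in the induced pool (29.4 to 55.6). Its ratio of 0.923 (0.593 to 1.44) was the nearest to 1 of the 5 shared sites, and its interval was the widest.

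ZEB2 site 2 (chr2:145273242-145273702) lay 951 bp from site 3 by summit and had no clobetasol peak. It held 40 fragments in the induced pool over 20 proliferating fragments, the lowest counts of the 10 sites, with a fold of 3.41. Listing would have needed 39 clobetasol fragments, a ratio of 0.802. Sites 1 and 2 thus had nearly the same induced count and q (−log10 q of 7.67 and 8.33), and 1 was listed with clobetasol while the other was not.

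Over the 10 sites together, induced fragments ran from 40 to 148 with a median of 68, against 20 to 47 unscaled fragments in the proliferating pool. The proliferating level at these summits was at most 4.00 times the lowest of the induced list, so all 10 lay within the bound of 5 times used above. Fold was above the list's median of 3.64 at 5 sites, and 7 were wider than the median peak of 423 bp. The windows held 8.20 clobetasol and 16.4 induced peaks per Mb, against 4.16 and 5.48 per Mb on chromosomes 1 to 22 and X between the first and last peak. The windows were drawn around genes with peaks in view, so this density is no finding.

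Sites with a clobetasol peak were, with an exception at either end, the stronger ones: SNAI1 site 1 was strong and had none, and ZEB2 site 1 was weak and had one. Of the 10 induced sites, 5 overlapped a clobetasol peak, against 64.0% of all induced peaks. All 5 clobetasol members overlapped an induced peak, against 86.4% of all clobetasol peaks. Of the 5 members with −log10 q under 10, 1 overlapped, against 28.7% of such induced peaks. Of the 5 with −log10 q of at least 20, 4 overlapped, against 94.5%, and the fifth was SNAI1 site 1. With so few sites these counts stand close to the background and are not read as particular to the windows. The 2 lists share the proliferating libraries, so agreement between them is not independent.

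**Figure D3:**
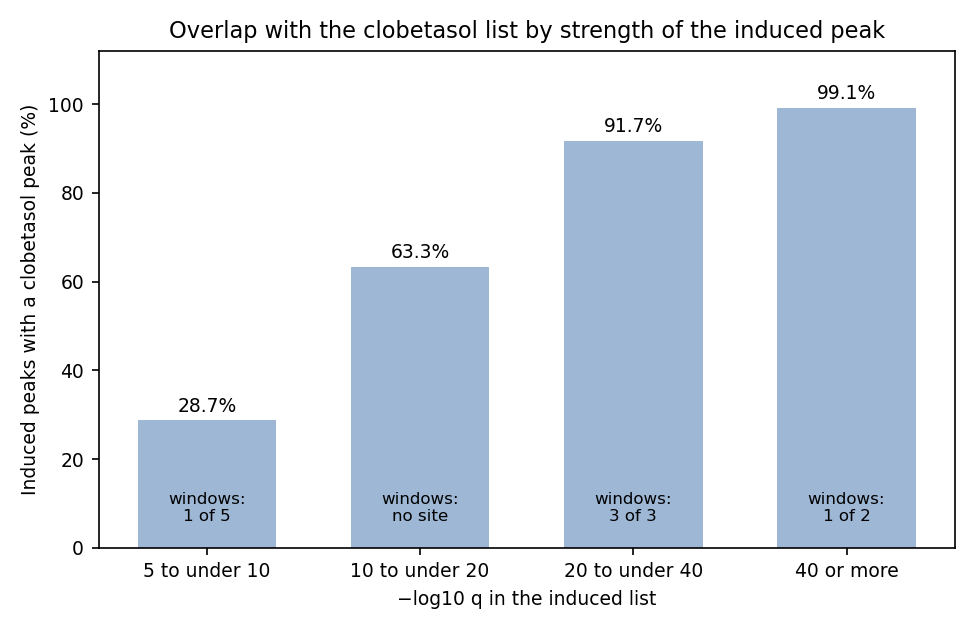
Share of induced peaks with an overlapping clobetasol peak (y axis, percent) by −log10 q in the induced list (x axis), for all induced peaks (bars), with the count for the sites of the windows written in each bar. The share is 28.7% in the weakest class and 99.1% in the strongest, where 1 of the 2 SNAI1 sites overlapped.

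At all 5 shared sites the depth-scaled count was lower in the clobetasol pool than in the induced pool, as at 87.4% of all shared sites. Without depth scaling, ZEB2 site 1 turned to the other side of 1, at 1.12. The ratios ran from 0.573 at SNAI1 site 2 to 0.923 at ZEB2 site 1, with a median of 0.772, against a median of 0.798 over all 10429 shared sites (interquartile range 0.705 to 0.911). Summed over the 5 sites, the clobetasol pool held 386 fragments, or 318 after depth scaling, against 448 in the induced pool. The ratio of the sums was 0.709 (0.617 to 0.814). The sum pools unlike sites chosen from these lists, and its interval covers counting error only, so it is no test of the set. SNAI1 site 2, with the lowest ratio, supplied 148 of the 448 induced fragments, and no such sum is given for all shared sites. The interval of the ratio of a single site lay below 1 at 2 of the 5, SNAI1 site 2 and ZEB1 site 2, against 35.7% of all shared sites. Among shared sites with an induced −log10 q of at least 20 it lay below 1 at 57.9%, and at 2 of the 4 members. It lay above 1 at 0 of the 5, against 0.585% of all shared sites. The median ratio of shared sites with an induced −log10 q of at least 20 was 0.747 (interquartile range 0.668 to 0.837). Of the 4 members of that strength, ZEB1 site 2, TWIST1 site 3 and ZEB2 site 3 lay inside this range and SNAI1 site 2 below it. Every shared site had to be listed in both lists, which leaves out sites that dropped further, such as SNAI1 site 1 may have done.

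**Figure D4:**
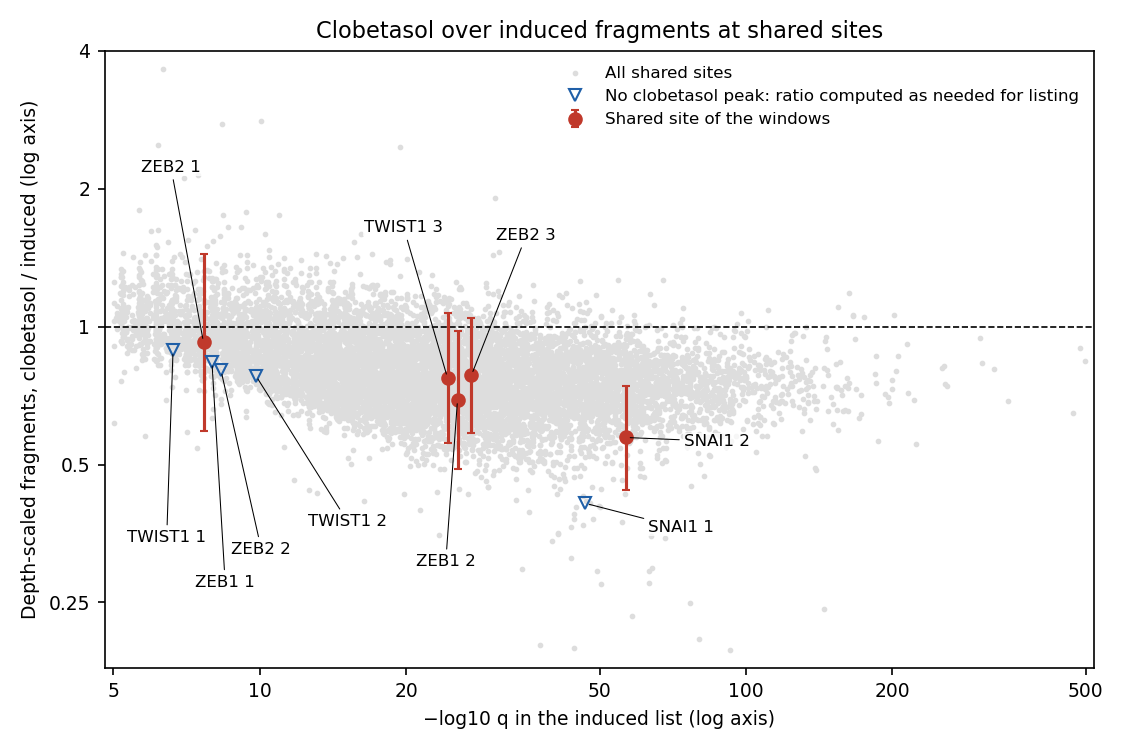
Depth-scaled fragments with clobetasol over those without it (y axis, log scale) against −log10 q in the induced list (x axis, log scale) for all 10429 shared sites (grey) and the 5 of the windows (filled, with 95% intervals); open triangles give, for the 5 sites with no clobetasol peak, the ratio computed as needed for listing. SNAI1 site 2 is the lowest filled point at 0.573, and the computed ratio for SNAI1 site 1 is 0.412, which holds if listing followed the p and q values alone.

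Summits of the shared sites stayed in place, with shifts of 0 bp at SNAI1 site 2, 10 bp at TWIST1 site 3 and ZEB1 site 2, 5 bp at ZEB2 site 1 and 14 bp at ZEB2 site 3. The proliferating counts recovered from the clobetasol list and the induced list were 47 and 47 at SNAI1 site 2, 35 and 32 at TWIST1 site 3, 30 and 27 at ZEB1 site 2, 21 and 22 at ZEB2 site 1, and 44 and 45 at ZEB2 site 3. Read at slightly different summits of the same pool, they differed by at most 3 fragments. How much DNA each immunoprecipitation recovered was not measured, so a change in binding and a change in yield cannot be told apart.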

How the data were processed

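Tools named in the submitters' processing notes were MACS2 2.1.1.20160309, SAMtools 1.3.1, BWA, FastQC 0.11.5, cutadapt 1.15 and bcl2fastq, on hg19. How peaks were called beyond that is not given in the sources used here. Peak names show that the authors pooled libraries 1, 2 and 3 of each group. The deposited columns used were the fold ratio and the −log10 p and −log10 q at the summit. The deposited score was not used. Per the labels, 2 of the 3 proliferating libraries (replicates 2 and 3) have a repeated name, and it is not known whether the pool held 3 distinct samples. The labels do not say that libraries came from separate cultures.

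The fold was taken as (pileup + 1)/(control + 1) and the −log10 p as the Poisson tail, and both were solved per peak. The treated pileup came within 0.05 of a whole number at 99.5% of peaks in each list. Control levels fell on multiples of 0.670 and 0.552 in the clobetasol and induced lists, whose quotient is the depth ratio. The steps were tested on simulated data. Peaks were paired by an overlap of at least 1 bp. Members, gene set and motifs were chosen with earlier results of these data known; all member peaks are named. Counts of peaks by gene for further regulators were not made, because no hg19 annotation was used here. Python 3.11.15, scipy 1.17.1 and pandas 2.3.3 were used.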

Additional observations from a re-analysis of the deposited data

How the results depend on the processing

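Of 31 alternative values over 9 results, 28 stayed close to the value reported and 3 moved further. Close meant within 1.5 times the count reported or inside the 95% interval of the ratio reported. Overlap was judged by its count alone, though its share rose where fewer induced peaks were kept. A ratio whose interval lay below 1 never turned above 1. Keeping −log10 q of at least 10 left 5 induced peaks in the windows in place of 10. Widening each window by 50 kb gave 10 clobetasol peaks in place of 5. Without depth scaling, the summed ratio at shared sites was 0.862 in place of 0.709, and ZEB2 site 1, whose interval spans 1, turned from 0.923 to 1.12. A fold of at least 3 left 7 induced peaks, and windows widened by 50 kb held 14 induced peaks. The overlap count was 5 of 10 with mutual overlap of at least 50%, or with summits within 100 bp, and 4 of 5 at −log10 q of at least 10. No paired analysis was possible because the lists hold 1 pool per group, and no replicate could be left out. Depth limits what can be said at sites of 40 to 60 induced fragments, where the computed ratio for listing was near 0.8. The lowest listed −log10 q was 5.00 in both lists. Peak numbers ran to 26677 for 12340 clobetasol peaks and to 52393 for 16285 induced peaks, and how listing followed calling was not recorded.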
